A study of Mus musculus with 8 samples.

Results

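Untreated liver of hypophysectomized male mice is the starting point from which the response to growth hormone (GH) was measured, and its transcript levels before any hormone are described here. The group consisted of 2 RNA pools out of 8 in the series, and its levels were taken from the authors' mean FPKM (fragments per kilobase of sequence, scaled to library size) for each of 24197 genes, over the gene body and, separately, over introns. All mice were CD-1 males, an outbred stock, whose pituitary had been removed by the supplier at 7 weeks of age and whose livers were collected at 11 weeks. The legend gives 4 mice per pool. The other 3 groups, with 2 pools each, had the same surgery and received rat GH made by recombination, 125 ng for each g of body weight into the peritoneal cavity, and were killed 30, 90 or 240 min later. The design text calls the group without GH untreated, while the treatment protocol also speaks of an injection of vehicle, so whether these mice were injected is not settled by the labels. Every group lacked the pituitary and the series holds no intact animals, so an effect of hypophysectomy itself cannot be read from these data. The table used here holds group means, which leaves every level below without a measure of how far the pools lay apart, and pools of several mice do not show the spread between mice.

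The pituitary releases GH, thyrotropin, corticotropin, prolactin and the gonadotropins, and its removal deprives the liver of GH and lowers thyroid hormone, glucocorticoid and sex steroids. Hepatocytes, the main cells of the liver, make most plasma proteins and hold the enzymes of urea, amino acid, glucose, fat and drug metabolism. GH pulses normally sustain Igf1, which encodes insulin-like growth factor 1, and the pattern of the pulses sets many of the sex differences of rodent liver. Introns are removed soon after transcription, so reads over introns come largely from RNA that has been made recently or that keeps an intron, and their level relative to the exons describes the balance of unspliced and mature RNA.

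Since the lowest FPKM values step in units of 1 read, library size could be worked out from them. The pools without GH held 7440000 and 10520000 counted reads, and the pools of the other groups ranged from 5940000 to 17120000. The intronic values of the untreated group gave totals of 7440000 and 10510000 when the length of a gene outside its exons was used, so both measures are reads per kilobase on the same total. The quotient of intronic and gene-body FPKM therefore compares read density in introns with that in exons. A count of 3 reads in the smaller pool on 1 kb of exon gives a mean of 0.202 FPKM, and on 10 kb of intron a mean of 0.0202 FPKM, and these floors cover counting error only. Of the 24197 genes, 10656 reached 1 FPKM, 4086 reached 10, 625 reached 100, 56 reached 1000 and 3 reached 10000, while 8232 were listed at 0.

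The mRNA of albumin, the main protein of plasma, was the most abundant. The authors' mean for Alb was 40641 FPKM, which was 8.92% of the FPKM summed over all genes and rested on at least 1230034 reads in both pools together. Apoa2, which encodes an apolipoprotein of high-density lipoprotein, followed with 22642 FPKM, and Apoe, the ligand for the uptake of lipoprotein remnants, with 12539.7 FPKM. Alb was 1.79-fold above Apoa2, and Apoa2 was 1.81-fold above Apoe. The fourth to sixth ranks were held by Ttr, the carrier of thyroxine and of retinol-binding protein, at 6195 FPKM, Trf, the iron carrier transferrin, at 6131 FPKM, and Apoc1, a small apolipoprotein, at 4913 FPKM. The other 4 of the 10 most abundant genes were Ahsg (fetuin-A, 3919 FPKM), Fgb (the fibrinogen beta chain, 3914 FPKM), Gc (the vitamin D carrier, 3504 FPKM) and Apoa1 (the main protein of high-density lipoprotein, 3483 FPKM). All 10 encode secreted plasma proteins.

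The transcriptome was concentrated in few genes. The 10 most abundant held 23.7% of the summed FPKM, the 30 most abundant 33.5%, the 100 most abundant 47.2% and the 1000 most abundant 78.7%. Of the sum, 25% was reached with 12 genes, 50% with 125 genes and 90% with 2765 genes. Without Alb, the 10 most abundant genes held 16.97% of the remaining sum. Weighted by transcript length, which turns the measure into a share of reads, the leading 10 held 18.7%. That share leaves out genes without a known length, so it is not over the same genes as the 23.7%. The 100 most abundant genes had short transcripts, with a median longest transcript of 1711.5 nt for the 98 with a known length, against 3180 nt among 10233 genes of at least 1 FPKM. Their introns summed to a median of 8.74 kb (84 genes with a known length), against 14.9 kb among 7507 genes of at least 1 FPKM.

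**Figure D1:**
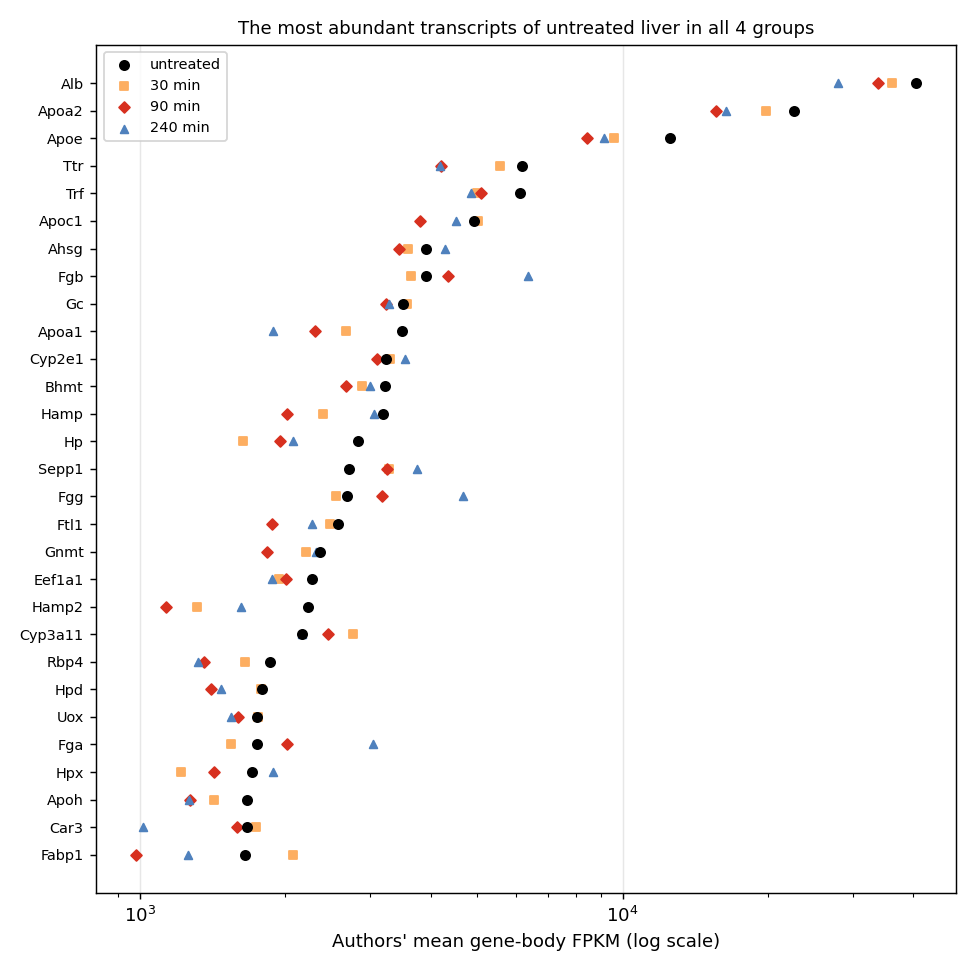
Each row is one of the leading genes, ordered by its level in untreated liver, and the points are the authors' mean gene-body FPKM (log scale) of the untreated group and of the groups 30, 90 and 240 min after GH, without error bars because the table holds means only. Alb leads at 40641 FPKM, and the black points fall from there to 1646 FPKM for Fabp1. The blue points of Fgb, Fgg and Fga lie to the right of the black ones.

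Several of the leading genes lie next to relatives whose levels differ widely. On chromosome 5 (mm9) the albumin family is spread over Gc (89846535 to 89886923), Alb (90889914 to 90905629), Afp (90919739 to 90937933) and Afm (90947974 to 90982570). Alb was 11.6-fold above Gc and 220-fold above Afm, the vitamin E carrier afamin, at 184 FPKM. Afp, the fetal counterpart of albumin, was at 0.655 FPKM, a level of 20 to 28 reads in both pools, so that the quotient of Alb over Afp was 62073. On chromosome 7, Apoe (20281592 to 20284515) lies beside Apoc1, which was 2.55-fold lower, Apoc4 at 606 FPKM and Apoc2, the activator of lipoprotein lipase, at 193 FPKM. On chromosome 9, Apoa1 (46036712 to 46038552) lies beside Apoc3, an inhibitor of triglyceride clearance, at 969 FPKM, Apoa4 at 34.0 FPKM and Apoa5 at 471 FPKM. The fibrinogen genes on chromosome 3 were closer to each other, with Fgb at 3914, Fgg at 2688 and Fga at 1744 FPKM.

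The starts of 4 abundant genes are shown because they carry short sequence elements that were more frequent among the leading genes than among other promoters. Each sequence comes from RefSeq (GRCm38.p6, a later build than the mm9 of the deposited table) and runs from 80 bases before the annotated start to 50 bases after it. Capitals mark GTTAAT or its reverse complement ATTAAC, the core letters of sites of the liver factor HNF1, in Alb and Fgb, and TATAA, the core letters of the TATA box, in Cyp2e1 and Gnmt. The Alb sequence is chr5:90460790-90460919 on the plus strand, that of Fgb chr3:83049814-83049943 on the minus strand, that of Cyp2e1 chr7:140763739-140763868 on the plus strand and that of Gnmt chr17:46729116-46729245 on the minus strand.
Alb: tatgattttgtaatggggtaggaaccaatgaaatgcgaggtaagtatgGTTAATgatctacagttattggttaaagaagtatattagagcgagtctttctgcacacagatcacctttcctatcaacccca
Fgb: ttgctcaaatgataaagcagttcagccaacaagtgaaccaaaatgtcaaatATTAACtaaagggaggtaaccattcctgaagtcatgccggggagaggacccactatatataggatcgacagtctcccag
Cyp2e1: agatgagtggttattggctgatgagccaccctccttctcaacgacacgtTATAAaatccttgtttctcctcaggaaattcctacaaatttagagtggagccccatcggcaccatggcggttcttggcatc
Gnmt: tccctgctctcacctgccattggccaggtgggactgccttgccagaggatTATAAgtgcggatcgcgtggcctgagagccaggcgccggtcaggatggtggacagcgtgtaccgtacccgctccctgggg

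In these sequences the marked letters begin 32 bases before the annotated start in Alb, 29 in Fgb, 31 in Cyp2e1 and 30 in Gnmt. Whether transcription in liver begins at the annotated starts was not tested, and these positions and the windows below depend on it. RefSeq promoters were at hand for 71 of the 100 most abundant genes, with 81 starts in all. TATAA on the gene's strand, 15 to 45 bases before the start, was found in 14 of these 81 promoters (17.3%), in 2.37% of 10198 promoters of genes with at least 1 FPKM and in 3.89% of all 32851. GTTAAT on either strand, anywhere in the 300 bases from 250 before to 50 after the start, was in 16.05% of the 81, in 4.81% of those of genes with at least 1 FPKM and in 7.10% of all. TTGCNNAA, the core letters of C/EBP sites, was in 29.6%, 8.89% and 10.8% of the same sets on either strand. CCAAT on either strand, by contrast, was in 40.7%, 37.5% and 37.4%. Matches of different motifs were allowed to overlap. A match describes the letters and is not a bound site.

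Secreted proteins made up the largest of the 3 listed classes. The 162 genes on the 8 lists of plasma and urinary proteins and liver hormones held 36.1% of the summed FPKM, and 41 of them were among the 100 most abundant genes. Plasma carriers and transport proteins alone held 17.8%, and all 30 listed members in the table reached 1 FPKM, 27 of them 100 FPKM. Beside Alb, Ttr, Trf, Ahsg and Gc, the haemoglobin carrier Hp was at 2822 FPKM, the selenium carrier Sepp1 at 2711 FPKM, the retinol carrier Rbp4 at 1861 FPKM and the haem carrier Hpx at 1705 FPKM. The 14 apolipoprotein genes held 10.4%, with 13 of them above 100 FPKM. Apob, which encodes the large scaffold of very-low-density lipoprotein, was at 383 FPKM and ranked 160, while its long transcript collected at least 79326 reads.

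Coagulation and fibrinolysis factors held 2.67% of the sum, most of it in the 3 fibrinogen genes, with the plasmin precursor Plg at 1006 FPKM and the thrombin precursor F2 at 850 FPKM. The acute-phase list held 1.96%, led by Hamp, the iron-regulating hormone hepcidin, at 3188 FPKM and its relative Hamp2 at 2229 FPKM. The serum amyloid genes followed, Saa2 at 1239.9 and Saa1 at 1210.2 FPKM. Hp, the fibrinogens and C3 were counted on other lists and are not in that share. Serpin protease inhibitors and related inhibitors held 1.62%, with Serpina1b at 1406 FPKM and the alpha-macroglobulin Pzp at 1157 FPKM. Complement genes held 0.854%, with C3, the central component, at 1426 FPKM, while Cfd was listed at 0. Saa1 and Saa2, the Serpina1 genes and many of the major urinary protein (Mup) genes are close in sequence within each family, so that the division of reads between members is uncertain. For other relatives, such as Hamp and Hamp2 or Cyp2b9 and Cyp2b13, the division of reads was not examined.

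The Mup genes, which encode pheromone carriers excreted in urine and known as abundant products of intact male liver, held 0.151% of the summed FPKM. Only 9 of the 20 in the table reached 1 FPKM. Mup3 was at 294 FPKM, Mup21 at 198 and Mup20 at 129 FPKM, then Mup10 at 30.5 FPKM and Mup9 at 11.7 FPKM, and 5 were listed at 0 (Mup2, Mup7, Mup14, Mup15 and Mup19). How reads matching several Mup genes were counted was not examined, so the family total and the values of 0 are uncertain too. No intact liver was part of the series to set them against. Among the hormones and binding proteins made by liver, which held 0.701%, Igfbp2, a binding protein for insulin-like growth factors, was at 1137 FPKM and Agt, the precursor of angiotensin, at 688 FPKM. Igf1 itself was at 12.8 FPKM, rank 3395, and Igfals, its partner in the circulating complex, at 9.58 FPKM. Igfbp2 was 25.1-fold above Igfbp1, at 45.4 FPKM.

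**Figure D2:**
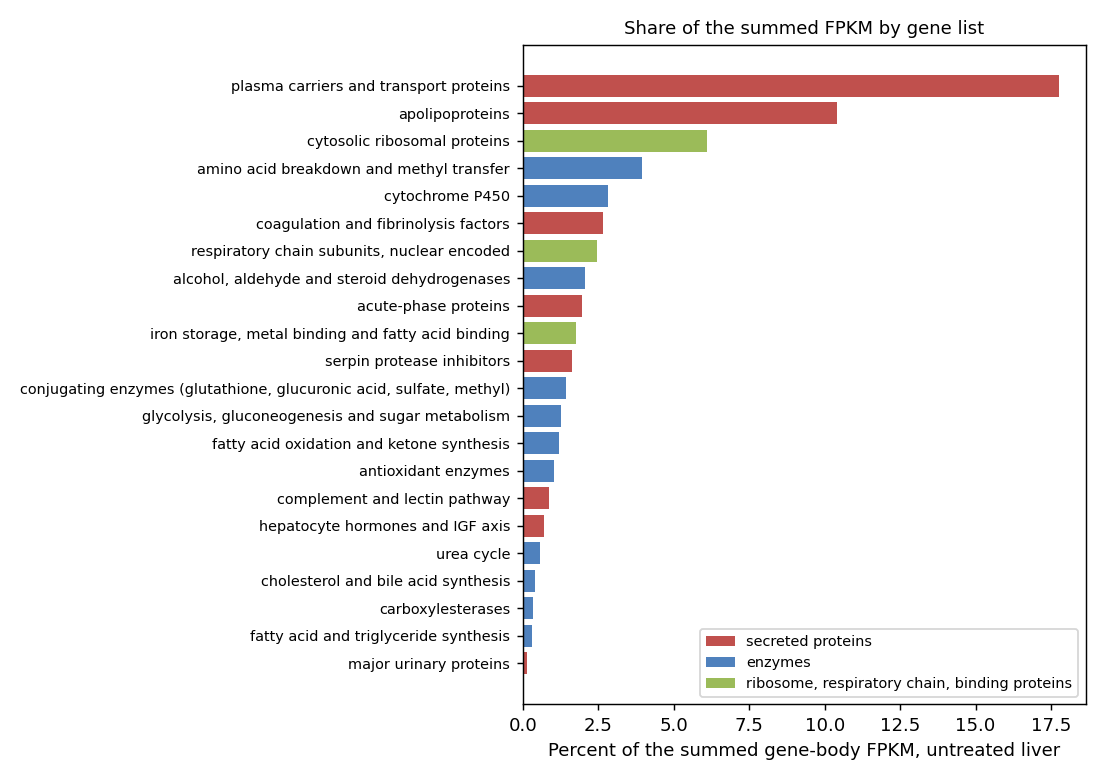
Bars give the percent of the gene-body FPKM summed over all genes in untreated liver that each list of secreted proteins (red), enzymes (blue) or ribosomal, respiratory chain and binding proteins (green) held, from the authors' group means without error bars. Plasma carriers (17.8%) and apolipoproteins (10.4%) lead, and the major urinary proteins (0.151%) are last.

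Enzymes came next. The 391 genes on 11 enzyme lists held 15.4% of the summed FPKM, with 30 of them among the 100 most abundant genes and 0 among the first 10. The highest was Cyp2e1, which oxidises ethanol and acetone in the pericentral zone, at 3233 FPKM and rank 11. It was followed by Bhmt, which remethylates homocysteine with betaine, at 3214 FPKM, and Gnmt, which uses up S-adenosylmethionine, at 2358 FPKM. Enzymes of amino acid breakdown and methyl transfer formed the largest enzyme list with 3.96%, and all 44 reached 1 FPKM. It included the tyrosine-degrading Hpd at 1789 FPKM, the S-adenosylmethionine synthetase Mat1a at 1519 FPKM and the cysteine-forming Cth at 1137 FPKM. All but Hpd of these 5 belong to the methionine cycle or to the transsulfuration pathway that leaves it.

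Cytochrome P450 genes, the oxidases of drugs, steroids and fatty acids, held 2.81%, most of it in few members. Of the 101 in the table, 63 reached 1 FPKM, 23 reached 100 and 16 were listed at 0. After Cyp2e1 came Cyp3a11 at 2164 FPKM, Cyp2c29 at 1595 FPKM, Cyp2d26 at 561 FPKM and Cyp3a25 at 537 FPKM. Alcohol, aldehyde and steroid dehydrogenases and related oxidases held 2.07%, with the urate oxidase Uox at 1744 FPKM and the alcohol dehydrogenase Adh1 at 1273 FPKM. Conjugating enzymes held 1.42%, with the microsomal glutathione transferase Mgst1 at 1584, Gstm1 at 1080.0 and Gsta3 at 1059 FPKM. Sugar enzymes held 1.26%, with the gluconeogenic Fbp1 at 1024 FPKM and Pck1, the entry enzyme of gluconeogenesis, at 408 FPKM.

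Fatty acid oxidation and ketone synthesis held 1.19% of the summed FPKM and fatty acid and triglyceride synthesis 0.320%. In the synthesis list, the desaturase Scd1 stood at 559 FPKM, rank 100. Antioxidant enzymes held 1.02%, with the superoxide dismutase Sod1 at 1323 and catalase (Cat) at 1010.0 FPKM, and the urea cycle held 0.582%, with the argininosuccinate synthase Ass1 at 938 and the carbamoyl-phosphate synthase Cps1 at 675 FPKM. Cholesterol and bile acid enzymes held 0.414% and carboxylesterases 0.354%. Hmgcs1, the cytosolic synthase of the cholesterol pathway, was listed at 0. The table places it on unplaced sequence of chromosome 13.

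Proteins of the ribosome and the respiratory chain had no member among the 10 most abundant genes. The 86 cytosolic ribosomal protein genes held 6.11% of the summed FPKM with a median of 319 FPKM and a highest member, Rps2, of 1001 FPKM, and 83 of them reached 1 FPKM. The 83 nuclear-encoded respiratory chain genes held 2.47%, with a median of 122 FPKM. Outside these lists, 15 genes were among the 100 most abundant. They included the elongation factor Eef1a1 at 2268 FPKM, the carbonic anhydrase Car3 at 1662 FPKM, and B2m, the light chain of MHC class I, at 1216 FPKM. Also among them were Rn45s, the precursor of ribosomal RNA, at 585 FPKM, and Mir5121, the locus of a microRNA, at 584 FPKM, in libraries made from poly-A RNA. The interval of Mir5121 on chromosome 7 (52382287 to 52382361, mm9) lies within that of the ribosomal protein gene Rpl13a (52380932 to 52384115), at 357 FPKM, so their reads cannot be told apart here.

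Genes tied to pituitary hormones spanned a wide range. Of 18 receptor genes of pituitary-controlled and metabolic hormones, 10 reached 1 FPKM. The glucagon receptor Gcgr was at 103 FPKM and the GH receptor Ghr at 93.2 FPKM, at rank 660 of all genes. Next were the insulin receptor Insr at 20.8 FPKM, the glucocorticoid receptor Nr3c1 at 13.7 FPKM, the thyroid hormone receptors Thra at 7.84 and Thrb at 6.86 FPKM, and the prolactin receptor Prlr at 6.14 FPKM, which was 15.2-fold below Ghr. The vasopressin receptor Avpr1a (4.65 FPKM), the mineralocorticoid receptor Nr3c2 (3.47 FPKM) and the estrogen receptor Esr1 (1.41 FPKM) followed. The leptin receptor Lepr (0.707 FPKM) and the IGF1 receptor Igf1r (0.450 FPKM) were below 1 FPKM, and the receptors of corticotropin (Mc2r), thyrotropin (Tshr), luteinizing hormone (Lhcgr), follicle-stimulating hormone (Fshr) and oxytocin (Oxtr) were listed at 0. Differences between neighbours in this order, such as 1.1-fold between Gcgr and Ghr, cannot be set against a spread between pools.

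All 17 genes of GH signalling and its direct targets reached 1 FPKM and none reached 100. The signal transducers Stat3 (48.2 FPKM) and Stat5b (12.3 FPKM), the kinase Jak2 (4.21 FPKM) and Stat5a (1.74 FPKM) were present. The phosphatases Ptpn11 (11.6 FPKM), Ptpn1 (10.6 FPKM) and Ptpn6 (8.53 FPKM) stood between them. Of the feedback inhibitors, Socs3 was at 35.9 FPKM, while Cish (1.79 FPKM), Socs1 (1.66 FPKM) and Socs2 (1.18 FPKM) were at the lower end. The liver factor Onecut1 was at 2.05 FPKM and the repressor Bcl6 at 7.55 FPKM.

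Genes known as male-biased and genes known as female-biased in mouse liver were both detected. Of 28 male-biased genes 22 reached 1 FPKM, and of 32 female-biased genes 22 did, with medians of 6.98 and 3.50 FPKM. On the male side, Mup21 (198 FPKM), the steroid hydroxylase Cyp2d9 (195 FPKM) and the fatty acid hydroxylase Cyp4a12a (124 FPKM) were among the highest. Hsd3b5 (3.33 FPKM), the uptake carrier Slco1a1 (5.67 FPKM) and Elovl3 (6.50 FPKM) were far lower. On the female side, Hamp2 (2229 FPKM), Cyp4a14 (536 FPKM), Cyp2b13 (246 FPKM), Cyp2b9 (214 FPKM) and Cyp2a4 (61.7 FPKM) were highest, while Cyp3a41b (0.570 FPKM), Sult3a1 (0.531 FPKM), Sult1e1 (0.364 FPKM) and Cux2 (0.163 FPKM) were below 1 FPKM. No intact male or female liver was part of the series, so these levels say nothing about a change in bias.

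Of 20 targets of glucocorticoids, 19 reached 1 FPKM and 7 reached 100 FPKM, with a median of 32.9 FPKM. They were led by Serpina6, the corticosteroid carrier of plasma, at 1337 FPKM. The metallothioneins Mt1 (886 FPKM) and Mt2 (726 FPKM) and the tyrosine aminotransferase Tat (531 FPKM) were also high. Fkbp5 (2.63 FPKM), Sgk1 (5.26 FPKM) and Per1 (5.96 FPKM), which glucocorticoids are known to induce, were lower. Every group lacked the pituitary, so these levels do not measure glucocorticoid action. Among genes of thyroid hormone action, the lipogenic regulator Thrsp was at 66.4 FPKM and the malic enzyme Me1 at 16.6 FPKM. The deiodinase Dio1, which activates thyroxine, was at 0.644 FPKM, Hr, a target of the receptor in other tissues, at 0.0173 FPKM, and Dio2 was listed at 0.

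**Figure D3:**
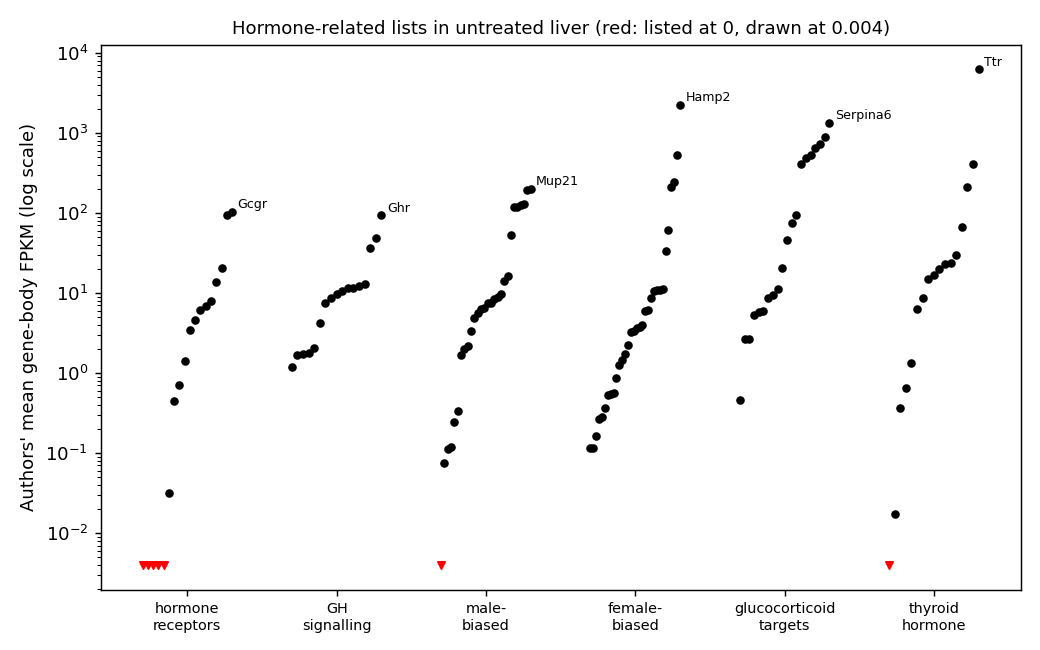
Each point is a gene of 6 hormone-related lists, placed by the authors' mean gene-body FPKM in untreated liver (log scale) and sorted from left to right within its list, with the highest member named. Red triangles, drawn at a fixed height, are genes listed at 0, of which the hormone receptors have 5.

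The tissue label was checked against marker genes. All 10 hepatocyte markers were between 111 and 40641 FPKM. Kupffer cell and macrophage markers were present at lower levels, with 11 of 11 reaching 1 FPKM and a highest value of 46.3 FPKM (C1qa). The 10 markers of sinusoidal endothelial cells, the fenestrated lining of liver capillaries, lay between 3.90 and 49.6 FPKM (Clec4g). Stellate cell and fibroblast markers had a median of 3.03 FPKM, cholangiocyte markers of 0.720 FPKM and lymphocyte markers of 0.877 FPKM. Of 9 neutrophil markers 3 were listed at 0, and the highest after Lcn2, which hepatocytes also make, was S100a8 at 14.97 FPKM. Haemoglobin Hbb-b1 was at 141 FPKM. Of 8 pituitary markers 7 were listed at 0, among them Gh and Prl, and Pomc was at 0.209 FPKM. In bulk RNA, fewer cells of a type and less RNA per cell cannot be told apart.

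Both zones of the liver lobule were represented. Pericentral genes ranged from Cyp2e1 (3233 FPKM) over the ornithine aminotransferase Oat (577 FPKM) and the glutamine synthetase Glul (102 FPKM) to the Wnt targets Axin2 (1.07 FPKM) and Lgr5 (0.862 FPKM). Periportal genes ranged from Alb over Arg1 (351 FPKM), the glutaminase Gls2 (241 FPKM) and Cyp2f2 (140 FPKM) to Ctsc (23.4 FPKM). Proliferation genes were low, with Mki67 at 0.212 and Top2a at 0.206 FPKM, and the fetal transcript H19 was at 5.02 FPKM. Among liver transcription factors, 33 of 34 reached 1 FPKM, led by Cebpa (186 FPKM), the unfolded protein factor Xbp1 (130 FPKM), the clock output factor Dbp (123 FPKM), the xenobiotic receptor Nr1i3 (114 FPKM) and Hnf4a (111 FPKM). Together the 34 held 0.291% of the summed FPKM.

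Intronic reads were a small part of the reads counted for genes with introns. Over 17361 genes with a known transcript length and an intron length above 0, introns held 5.10% of the reads assigned to exons or introns. Genes at several locations have no length here and are left out of that share. Of the 10656 genes with at least 1 FPKM, 10087 had intronic signal, and their median intron to gene-body quotient was 0.0129, with quartiles of 0.00545 and 0.0306. Of the 569 with an intronic value of 0, 507 had a known length, and 315 of these had no intron by that length. Another 550 genes were listed at 0 over the gene body and above 0 over introns, so the gene-body value does not take up intronic reads in every gene.

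The quotient fell as level rose. Its median was 0.0160 for genes from 1 to 10 FPKM, 0.0101 from 10 to 100, 0.00577 from 100 to 1000 and 0.00437 for the 56 genes of 1000 FPKM or more. The gene-body value is the denominator of the quotient, so part of such a trend is built in. The quotient also fell with intron length among genes of at least 10 FPKM. The median was 0.0293 where introns summed to 0.1 to 1 kb and 0.0175 for 1 to 3 kb. It was 0.0130 for 3 to 10 kb, 0.00739 for 10 to 30 kb and 0.00404 for 30 to 100 kb, and 0.00157 above 100 kb. Intronic FPKM is divided by intron length, so part of this trend may be built in as well. Only genes with intronic signal entered, 126 of 145 at 0.1 to 1 kb and 973 of 973 at 10 to 30 kb.

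**Figure D4:**
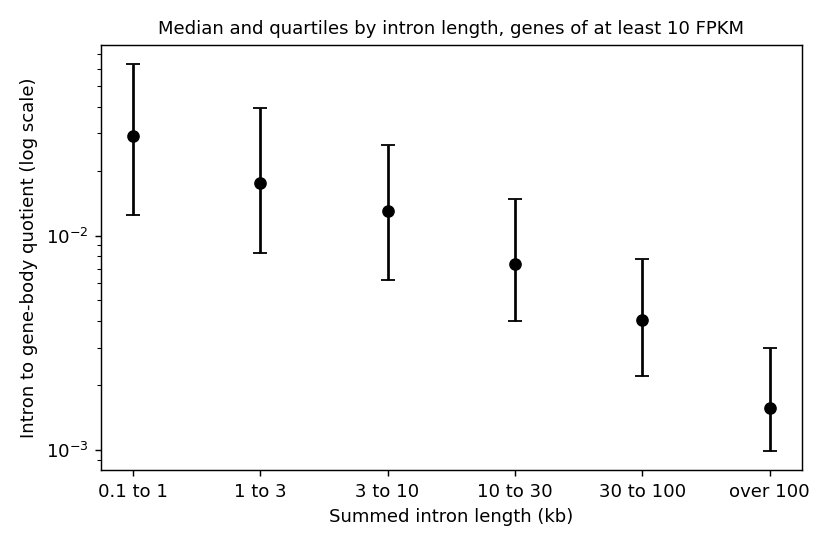
Points are medians and bars the quartiles of the intron to gene-body quotient (log scale) in untreated liver, by summed intron length in kb. Genes of at least 10 FPKM with intronic signal are included. The medians fall from 0.0293 below 1 kb to 0.00157 above 100 kb, and the bars show the spread over genes, not over pools.

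Alb had an intronic value of 70.4 FPKM, the second highest of all genes, yet its quotient was 0.00173. Apoa2 was alike, with 53.4 intronic FPKM and a quotient of 0.00236. The fibrinogen genes and Hamp stood higher at similar intronic values, with 68.4 intronic FPKM and a quotient of 0.0255 for Fgg, 46.4 and 0.0266 for Fga, 44.9 and 0.0115 for Fgb, and 66.4 and 0.0208 for Hamp. Over the 100 most abundant genes the median quotient was 0.00468, and the values of the 98 with intronic signal ran from 0.000707 to 0.0590. The lowest of the 10 leading genes was Gc, at 0.000883, and the highest of the leading 100 was the metallothionein gene Mt2, at 0.0590 with 42.8 intronic FPKM.

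The highest intronic value, 72.2 FPKM, belonged to Cxcl1, a chemokine that attracts neutrophils, whose gene body was at 282 FPKM and whose quotient was 0.256. These intronic reads numbered at least 987 over both pools. The quotient of Cxcl1 was 0.239 at 30 min, 0.264 at 90 min and 0.248 at 240 min after GH, while at 240 min its introns were at 14.8 FPKM and its gene body at 59.7 FPKM, both called lower in the authors' deposited table. Apon, an apolipoprotein gene, had a quotient of 0.375, but its introns are so short that 25 to 35 reads lay behind it.

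Among genes of at least 10 FPKM, 30 had a quotient above 0.2. The highest were picked among genes with a given name, which leaves out clone and predicted-gene symbols. They were Cyp2d37-ps, a pseudogene of the cytochrome P450 family, at 0.714, and Cd14, a receptor for bacterial lipopolysaccharide, at 0.612 with 11 to 16 intronic reads. Cyp2d37-ps had no known transcript length, so its read number could not be worked out. Srsf2, an SR protein of splicing, was at 0.512 (61.0 FPKM over the gene body and 31.2 over introns), Rsrp1, an arginine- and serine-rich protein, at 0.460 (124 and 57.0 FPKM), and Hnrnpdl, an RNA-binding protein, at 0.408. Srsf2 and Hnrnpdl are known to regulate their own mRNA through alternative splicing. Their intronic reads numbered at least 603 for Srsf2, 1693 for Rsrp1 and 326 for Hnrnpdl. The quotients recurred in the other groups, at 0.628, 0.722 and 0.425 for Srsf2 and at 0.458, 0.463 and 0.512 for Rsrp1 at 30, 90 and 240 min. Cdk8, a kinase of the Mediator complex, was at 0.414 with at least 4448 intronic reads. Whether introns overlap other annotated transcripts in these genes was not tested.

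At the other end, Lars2, the mitochondrial leucyl-tRNA synthetase, was at 220 FPKM over the gene body and 0.0222 over introns, a quotient of 0.000101, with 30 to 43 intronic reads. Its quotient was 7.92e-05, 0.000104 and 0.000129 in the groups 30, 90 and 240 min after GH. Whether all reads counted over the Lars2 gene body came from its mRNA was not tested. The translation initiation factor subunit Eif3h (0.000256, 25 to 35 reads), the succinyl-CoA ligase subunit Suclg2 (0.000327, 130 to 184 reads) and the proteasome subunit Psmb7 (0.000362, 31 to 44 reads) were also low. Cldn2, a tight junction protein, rested on a single intronic read, and Bche on 8 to 12, so their values were not resolvable at this depth.

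**Figure D5:**
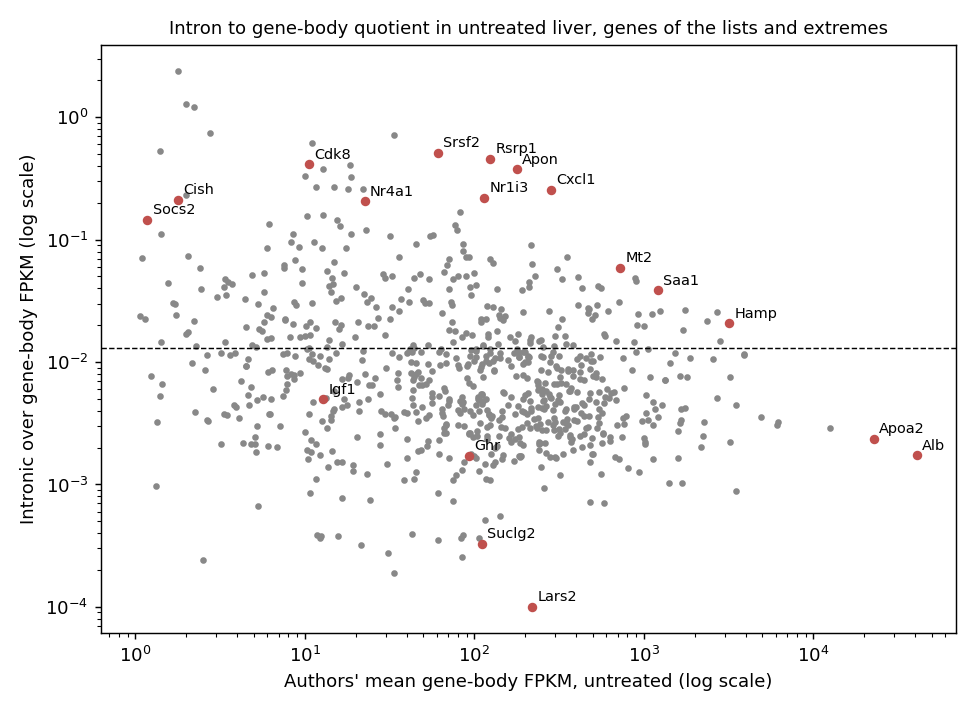
Each point is a gene of the lists or of the extremes, placed by the authors' mean gene-body FPKM (x, log scale) and by its intronic over gene-body FPKM (y, log scale) in untreated liver, and the dashed line is the median over all genes of at least 1 FPKM, 0.0129. Alb (0.00173) and Lars2 (0.000101) lie far below the line, and Cxcl1 (0.256), Rsrp1 (0.460) and Srsf2 (0.512) far above it.

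Among lists with at least 10 measured genes, quotients were highest for the immediate-early and stress genes. They had a median of 0.0425 over 16 genes, with Nr4a1, an orphan nuclear receptor, at 0.205 from 22.5 FPKM over the gene body. The acute-phase list had a median of 0.0361 over 12 genes, with Saa1 at 0.0388 and Saa2 at 0.0263. Hp (0.0149), Fgb (0.0115), C3 (0.00984) and Orm1 (0.0718) were counted on other lists. Glucocorticoid targets had 0.0323 over 18, with Igfbp1 at 0.0917 and Tat at 0.0293. Genes of GH signalling had 0.0184 over 16, with Cish at 0.211 and Socs2 at 0.146, both from under 2 FPKM over the gene body, and with Igf1 at 0.004998 and Ghr at 0.00172. Liver transcription factors had 0.0178 over 30 genes, with Nr1i3 at 0.220. The lowest median was that of the hepatocyte markers, 0.00264 over 10 genes. Low medians were also found for fatty acid oxidation and ketone synthesis with 0.00309 over 33 genes and the respiratory chain with 0.00404 over 78. The urea cycle, with only 7 measured genes, had 0.00319. Ribosomal proteins had 0.00529 over 82 and plasma carriers 0.0109 over 29 genes, beside the 0.0129 over all measured genes. These lists differ in level and intron length, and the part of either in the medians was not tested.

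By the FPKM means, untreated liver had the lowest median quotient of the 4 groups. Over the 3484 genes with at least 10 FPKM and intronic signal in every group, the median was 0.00832 in untreated liver, 0.00939 at 30 min, 0.0132 at 90 min and 0.0105 at 240 min. The quartiles in untreated liver, 0.00398 and 0.0192, were also the lowest of the 4. The authors' intronic ratios scale the later groups down, with a median shift of -0.57 on the log2 scale at 90 min in the authors' deposited table, which these FPKM quotients do not include. Each group mean rests on 2 pools whose spread the table does not hold, so these differences were not tested, and whether they lie within the variation of poly-A selection between libraries cannot be told apart from an effect of GH.

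Most of the leading genes were among the leading genes after GH too, while places within them changed. Of the 10 most abundant genes of untreated liver, 9 were among the leading 10 at 30 min, 9 at 90 min and 8 at 240 min, and of the 100 most abundant genes 91, 90 and 89 were among the leading 100. Ttr, at rank 4 in untreated liver with 6195 FPKM, was at 4190 FPKM at 240 min, below Fgb (6359), Trf (4859), Fgg (4670), Apoc1 (4525) and Ahsg (4291 FPKM). The share of the 10 most abundant genes of each group was 23.7% in untreated liver, 22.1% at 30 min, 21.4% at 90 min and 20.1% at 240 min. Alb went from 40641 FPKM in untreated liver to 36152 at 30 min, 33875 at 90 min and 27957 at 240 min, and its share of the sum from 8.92% to 6.54% at 240 min. In the authors' deposited table the log2 ratio of Alb at 240 min was -0.59 (adjusted p = 0.00035). Of the classes, secreted proteins were at 36.1% of the sum in untreated liver and 33.5%, 33.4% and 32.6% at 30, 90 and 240 min, and enzymes were at 15.4%, then 16.9%, 16.3% and 15.4%.

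Counted with an adjusted p below 0.05 in the authors' deposited table, 0 of the 100 most abundant genes were called at 30 min, beside 0.264% of all genes (0.116% higher and 0.149% lower). At 90 min 45 were called, 2 higher and 43 lower, beside 13.4% of all genes (7.56% higher and 5.83% lower). At 240 min 32 were called, 5 higher and 27 lower, beside 10.9% of all genes (6.7% higher and 4.22% lower), and none of the called genes at either time reached a 2-fold change in the authors' deposited table. These genes were ranked by the same untreated pools that are the denominator of all 3 comparisons, which favours lower values after GH, so the directions are given as a description. They also have short transcripts and many reads, and the part of either in the calls was not tested. The 900 genes that followed, down to rank 1000, had 43.4% called at 90 min and 22.7% at 240 min, and the next 9000 had 27.3% and 23.4%, in the authors' deposited table.

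Among the leading genes, the fibrinogens were the ones called higher at 240 min. In the authors' deposited table the log2 ratios at that time were 0.65 for Fgb (adjusted p = 0.00041), 0.74 for Fgg (adjusted p = 7.5e-05) and 0.74 for Fga (adjusted p = 1.1e-05), and the 3 were the only ones of the leading 30 called higher then. Their intronic values at 240 min were below the untreated ones, at 20.9 against 44.9 FPKM for Fgb, 47.9 against 68.4 for Fgg and 27.3 against 46.4 for Fga, with log2 ratios of -1.47, -0.88 and -1.14 in the authors' deposited table, each called. Those ratios include a shift of the authors' intronic scaling, with a median of -0.39 at 240 min against the quotient of FPKM means, and the FPKM themselves were lower too. The high-density lipoprotein genes were called lower, with log2 ratios at 240 min of -0.93 for Apoa1 (adjusted p = 7.0e-05) and -0.52 for Apoa2 (adjusted p = 0.0227) in the authors' deposited table. The hepcidin relative Hamp2 went from 2229 FPKM to 1309, 1129.8 and 1616 FPKM and was called lower at 90 min (log2 ratio -0.98, adjusted p = 1.2e-13) and at 240 min (log2 ratio -0.52, adjusted p = 0.0050) in the authors' deposited table. Cyp2e1, at 3233 FPKM in untreated liver and 3293, 3101 and 3531 FPKM after GH, was not called at any time in the authors' deposited table.

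Introns were compared in the same way, on ratios that the authors normalized apart from FPKM. The intronic log2 ratio in the authors' deposited table lay below the log2 quotient of the FPKM means with a median difference of -0.14 at 30 min, -0.57 at 90 min and -0.39 at 240 min, so that counts of lower calls over introns depend on that scaling. In the authors' deposited table, 4 of the 100 most abundant genes were called over introns at 30 min, beside 0.566% of all genes (0.351% higher and 0.215% lower). At 90 min 53 were called, 6 higher and 47 lower, beside 6.23% of all genes (3.32% higher and 2.91% lower). At 240 min 43 were called, 4 higher and 39 lower, beside 4.95% (2.29% higher and 2.66% lower). All genes include 10338 listed at 0 over introns in untreated liver. In the authors' deposited table, introns were called in 4.0%, 32.9% and 26.3% of ranks 101 to 1000 at 30, 90 and 240 min. At 90 min 61 of that band were higher and 235 lower. The next 9000 genes had 0.911%, 11.6% and 9.17% called, with 678 higher and 370 lower at 90 min. The part of level and read number in the intronic calls was not tested. The 4 calls at 30 min were all lower, and they were Inmt, Gnmt (log2 ratio -1.18, adjusted p = 0.0209), Cyp3a11 (-1.40, adjusted p = 0.0111) and Serpina6 (-1.09, adjusted p = 0.0466) in the authors' deposited table. Gnmt introns went from 51.1 FPKM in untreated liver to 24.4, 15.7 and 40.0 FPKM, while its gene body went from 2358 to 2208, 1833 and 2311 FPKM. Saa2 introns had a log2 ratio of -4.95 at 240 min (adjusted p = 8.7e-100) in the authors' deposited table, against -0.64 over the gene body.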

How the data were processed

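Poly-A RNA of 8 liver pools was sequenced in strand-specific libraries, per the labels' protocols. The submitters' processing notes name TopHat2, featureCounts, edgeR and mm9 without versions. Per the file headers, the authors deposited FPKM averaged by group over 2 pools, for gene bodies and separately for introns. They also deposited a normalized ratio and an adjusted p-value for each GH group against the untreated one, and the method of adjustment is not stated in the sources used here. The table has no value per pool, so no test was run and the authors' calls (adjusted p below 0.05) were counted.

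The members and gene lists were chosen with earlier results of these data known. A share is a gene's FPKM over the sum of all genes. The shift between the authors' log2 ratio and the log2 quotient of FPKM means was taken over genes above 0.1 FPKM in both groups. The quotient is intronic over gene-body FPKM, for genes with at least 1 FPKM and intronic signal. Named genes are the leading 30, up to 6 leading members per list, genes listed at 0, and the extremes of the quotient among genes of at least 10 FPKM with a given name. A few, among them neighbours of leading genes, Apob, Rn45s, Mir5121, Inmt and some zone and marker genes, were named after their values were seen. Transcript lengths came from GENCODE M21, matched by accession for 18264 genes at a single location and by symbol, as the longest transcript, for 23037. Intron length is the mm9 span minus transcript length. Read numbers are bounds for both pools together, from FPKM, length and the recovered totals. Depth recovery and the quotient were tested on simulated data. Python 3.11.15, numpy 2.4.6, pandas 2.3.3 and matplotlib 3.10.9 were used. Some members that the rule names are not reported here.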

Additional observations from a re-analysis of the deposited data

How the results depend on the processing

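No paired analysis was possible because the table holds group means and no value per pool, and for the same reason leaving out each pool could not be run. Restricting the sum to genes of at least 1 FPKM gave shares of 23.7% for the 10 and 47.4% for the 100 most abundant genes, 36.2% for secreted proteins and 15.4% for enzymes. Without Alb these were 16.97%, 42.2%, 29.9% and 16.9%. With FPKM times transcript length they were 18.7%, 40.6%, 28.7% and 17.6%, and with genes at a single location 25.9%, 50.4%, 37.8% and 15.8%. Genes reaching a minimum of 10 FPKM numbered 4086 and those reaching 0.1 FPKM 13990, against 10656 at 1 FPKM. The median quotient of 0.0129 became 0.00940 with a gene-body minimum of 10 FPKM, 0.0142 with an intronic minimum of 0.01 FPKM, 0.0119 with intronic values of 0 included and 0.0152 with a pseudocount of 0.01. Of the 100 leading genes, 33 were called at 90 min and 19 at 240 min at an adjusted p below 0.01, and 0 at either time with a 2-fold minimum, while 97 and 49 of the leading 200 were called. At 30 min each of these counts was 0. The cause was not tested for the shares with FPKM times transcript length, which reweights every gene and leaves out genes without a length. Depth limits quotients of genes with few intronic reads and levels near 0.202 FPKM per kb.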
